A study of Mus musculus with 6 samples.

Results

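A set of 10 genes of the unfolded protein response were followed in the colon of mice without epithelial Hnf4α: the sensors Ern1, Ern2 and Atf6, the transcription factors Xbp1, Atf4 and Ddit3, and the target genes Hspa5, Dnajb9, Herpud1 and Sdf2l1. They were chosen by name, and all 10 were measured, by 25 of the 45037 probe sets tested, among 18193 genes in all. RNA of the whole proximal colon was read in littermates at 1 year of age, 3 of them control and 3 mutant, with an Affymetrix mouse array for each animal. The mutants carried loxP-flanked Hnf4α alleles and Cre under the Villin promoter, which is active in the intestinal epithelium, while the colon samples also held muscle, stroma and immune cells. The control animals are labelled wildtype, and the strain and whether they carried loxP alleles are not given in the sources used here. Hnf4α is a nuclear receptor that acts as a transcription factor in the gut and liver.

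The unfolded protein response adjusts the folding capacity of the endoplasmic reticulum (ER) to the load of secreted and membrane proteins. Its sensors are Ern1 (IRE1α), Ern2 (IRE1β, found in mucosal epithelia), Atf6 and Eif2ak3 (PERK). Ern1 splices Xbp1 mRNA into the form that encodes the active factor, Atf6 is cut in the Golgi, and PERK favours translation of Atf4, so these steps act on RNA processing, cleavage and translation and are not read by a gene-level array signal. In the colon a high secretory load falls on goblet cells, which secrete mucin, and on the plasma cells of the lamina propria, which secrete IgA and depend on Xbp1.

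In the mutants none of the 10 genes passed the test over all probe sets. The most negative log2 fold changes (mutant minus control, also called log2 differences here) were those of Xbp1, with -0.89 (standard error, SE, 0.22), and Dnajb9, an ER co-chaperone, with -0.69 (SE 0.11). Herpud1, which serves in ER-associated degradation, followed with -0.44 (SE 0.12). The main chaperone Hspa5 (BiP) had -0.18 (SE 0.15), with groups that overlapped.

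Promoter sequences are shown for these 4 genes because factors of this response act on their targets through short promoter elements. The RefSeq window (build GRCm38.p6, the 250 bases before the annotated start) is written 5′ to 3′ on the strand of the gene. Capitals mark the fixed letters of the elements searched, and the windows of Dnajb9 and Xbp1 held none of them.
Hspa5, chr2:34771840-34772089, plus strand: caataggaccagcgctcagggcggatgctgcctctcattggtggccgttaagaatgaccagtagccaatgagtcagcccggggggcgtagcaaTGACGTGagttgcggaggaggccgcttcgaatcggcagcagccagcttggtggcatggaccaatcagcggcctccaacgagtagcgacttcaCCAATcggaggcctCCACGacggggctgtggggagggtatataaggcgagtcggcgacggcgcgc
Herpud1, chr8:94386179-94386428, plus strand: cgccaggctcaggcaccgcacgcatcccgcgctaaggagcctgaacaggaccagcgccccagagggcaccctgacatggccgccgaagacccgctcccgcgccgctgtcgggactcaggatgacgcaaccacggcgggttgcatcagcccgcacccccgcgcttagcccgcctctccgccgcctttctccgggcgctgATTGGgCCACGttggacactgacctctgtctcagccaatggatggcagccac
Dnajb9, chr12:44210069-44210318, minus strand: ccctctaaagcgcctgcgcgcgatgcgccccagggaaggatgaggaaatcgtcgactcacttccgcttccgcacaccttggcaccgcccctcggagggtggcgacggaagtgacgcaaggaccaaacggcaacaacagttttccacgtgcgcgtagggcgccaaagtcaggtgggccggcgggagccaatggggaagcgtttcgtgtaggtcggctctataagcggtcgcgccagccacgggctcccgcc
Xbp1, chr11:5520391-5520640, plus strand: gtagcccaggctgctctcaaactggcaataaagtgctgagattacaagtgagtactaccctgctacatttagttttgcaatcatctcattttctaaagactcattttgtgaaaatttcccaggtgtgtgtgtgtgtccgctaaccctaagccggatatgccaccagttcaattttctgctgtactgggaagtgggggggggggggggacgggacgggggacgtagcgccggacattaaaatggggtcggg

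The ER stress response element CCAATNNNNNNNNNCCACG, bound by Atf6 with NF-Y, was found in the Hspa5 window between positions -65 and -47 from the start. It was present in 39 of 32851 promoter windows (0.119%), counted with the 50 bases after the start. The second form of this element, ATTGGNCCACG, was found in Herpud1 between -52 and -42 and in 12 windows in all (0.0365%). TGACGTG, the core of the element bound by Xbp1 and Atf6, was found in Hspa5 between -157 and -151, and in 661 windows in all (2.01%). The composite C/EBP-ATF element TGATGNAAT (317 windows, 0.965%) and the HNF4 core CAAAGTCCA (156 windows, 0.475%) were found in none of the 8 members with an entry. Both strands were searched, and the matches did not overlap one another. Atf6 and Ern2 have no entry in the promoter table used. A match describes these letters only.

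Before the results, the arrays themselves were compared. Hnf4a, the targeted gene, fell in all mutants (log2 fold change -1.94, SE 0.10, adjusted p = 0.000788 from limma). Although mutant replicate 1 is labelled female like the controls, and only mutant replicates 2 and 3 male, the log2 signal of Xist was 9.94 to 10.96 over the control arrays against 5.03 to 5.32 over the mutant arrays. The Y-linked Eif2s3y went the opposite way, from 2.75 to 3.16 in controls and from 7.85 to 8.12 in mutants. Mutant replicate 1 thus went against its label, and in every difference given here genotype and sex cannot be told apart. Without mutant replicate 1, the log2 fold changes of Xbp1, Dnajb9 and Herpud1 were -1.07, -0.63 and -0.44. In mutant replicate 2 the median difference from the control mean was -3.91 for 15 smooth muscle markers and -3.13 for 17 fibroblast and matrix markers on the log2 scale, while it was between -0.51 and -0.28 for both lists in the other mutants. Results are therefore also given without mutant replicate 2 for part of the 10 genes, for the other ER genes counted together, and for some single genes and marker lists. The defining markers of the labelled tissue were present, with Epcam at 12.74 to 13.09 and Muc2 at 13.72 to 14.42 on the log2 scale, and the median of 12 gut epithelium markers differed from the control mean by -0.03, 0.19 and 0.14 in mutant replicates 1, 2 and 3.

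For none of the 3 sensors did the groups separate. Ern1, which splices Xbp1 mRNA, had log2 signals of 8.84, 8.45 and 9.01 in the controls, in the order of their replicate numbers, which is kept below. The mutants had 8.70, 8.53 and 8.59. They lay inside the range of the controls, and the log2 fold change was -0.16 (95% interval -0.53 to 0.21, adjusted p = 0.679 from limma). It depended on single controls, with -0.32 (unadjusted p of 0.0300) without control replicate 2 and -0.04 without control replicate 3. Its other 4 probe sets had log2 fold changes between -0.12 and -0.02, and 3 of these were dim, with means under 5 in both groups.

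Ern2, the paralog of mucosal epithelia, was the most variable sensor in the controls, with log2 signals of 7.73, 7.10 and 8.58, against 8.35, 8.22 and 7.99 in the mutants. All mutants again lay within the control range. It had a log2 fold change of 0.39 (95% interval -0.43 to 1.20, adjusted p = 0.653), and control replicates 2 and 3 decided its size, since it was 0.04 without the former and 0.77 (unadjusted p of 0.0119, adjusted p = 0.370) without the latter. Ern2 was read by 1 probe set.

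Atf6, a membrane-bound precursor of a transcription factor, had the smallest standard error of the 10 genes (0.09). Its log2 signals were 8.0, 7.90 and 7.97 in the controls and 7.87, 8.01 and 8.04 in the mutants. The groups overlapped, and the log2 fold change of 0.01 (95% interval -0.21 to 0.24, adjusted p = 0.957) changed sign when single arrays were left out. A dimmer probe set of Atf6 gave 0.25 (SE 0.13, adjusted p = 0.459).

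**Figure D1:**
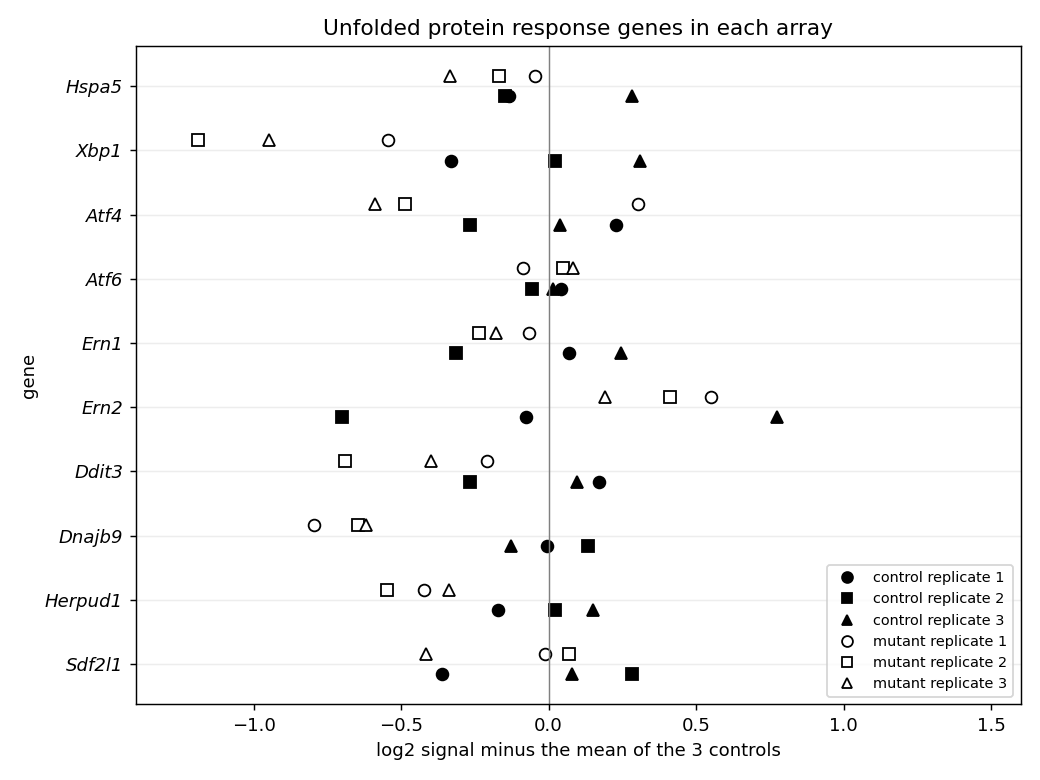
Log2 signal of the 10 unfolded protein response genes in each array, minus the mean of the 3 controls (horizontal axis), where controls are filled, mutants are open, and circle, square and triangle stand for replicates 1, 2 and 3. All 3 mutants lie below all controls for Xbp1, Dnajb9 and Herpud1, and the groups overlap for the other 7 genes.

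Among the transcription factors, Xbp1 showed the widest difference. Its log2 signals were 11.20, 11.55 and 11.84 in the controls and 10.99, 10.34 and 10.58 in the mutants. All mutants lay below all controls, with the smallest gap between control replicate 1 and mutant replicate 1. The log2 fold change of -0.89 (95% interval -1.41 to -0.38) is a mutant to control ratio of 0.538, and it did not pass the test (unadjusted p of 0.00466, adjusted p = 0.172 from limma). By SAM, the test of the study's methods, its unadjusted p was 0.00725. Without mutant replicate 2 the log2 fold change was -0.75 (unadjusted p of 0.0139, adjusted p = 0.353). In whole colon RNA, fewer cells of a type and less RNA per cell cannot be told apart.

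The other probe sets of Xbp1 also gave negative values. The next by intensity had a log2 difference of -0.72 (SE 0.19, adjusted p = 0.203), and a further one -0.80 (SE 0.20, adjusted p = 0.175), with all mutants below all controls in both. The dimmest probe set had log2 signals of 6.61, 7.45 and 7.12 in the controls. It had 6.98, 6.78 and 6.74 in the mutants, with overlap and a log2 difference of -0.23 (SE 0.21). The position of these probe sets relative to the intron that Ern1 removes was not analysed here.

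Atf4, the factor translated when PERK or a related kinase is active, had log2 signals of 10.23, 9.74 and 10.04 in the controls. It stood at 10.31, 9.52 and 9.41 in the mutants, with mutant replicate 1 above all controls and the other mutants below them. The log2 fold change was -0.26 (95% interval -0.86 to 0.35, adjusted p = 0.685), and it was -0.54 without mutant replicate 1, -0.39 without control replicate 2, -0.14 without control replicate 1 or mutant replicate 2, and -0.09 without mutant replicate 3. In a dimmer Atf4 probe set mutant replicate 1 was also above mutant replicates 2 and 3, at 7.62 against 6.62 and 6.54. It was not above control replicate 1 there, at 7.64. The dimmest Atf4 probe set did not show this split, with 6.12, 6.35 and 5.94 in the mutants.

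Ddit3 (CHOP), a factor induced downstream of Atf4 that promotes cell death, had log2 signals of 7.42, 6.98 and 7.34 in the controls and 7.04, 6.55 and 6.84 in the mutants. The groups overlapped only in that mutant replicate 1 stood above control replicate 2. Its log2 fold change was -0.43 (95% interval -0.84 to -0.03, unadjusted p of 0.0382, adjusted p = 0.356), and -0.30 (unadjusted p of 0.112) without mutant replicate 2. A dimmer probe set gave -0.54 (SE 0.18, adjusted p = 0.298) with no overlap, at 6.27, 5.82 and 6.46 in the controls and 5.49, 5.64 and 5.82 in the mutants. In this probe set control replicate 2 and mutant replicate 3 were equal to 2 decimals.

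Of the target genes, Dnajb9 (ERdj4) had the tightest groups. Dnajb9 signals were 10.34, 10.48 and 10.22 in the controls and 9.55, 9.70 and 9.73 in the mutants on the log2 scale. The gap between the lowest control and the highest mutant was wider than the range of either group. Between the means lay a log2 fold change of -0.69 (95% interval -0.94 to -0.43), a ratio of 0.621, which missed the threshold (unadjusted p of 0.000408, adjusted p = 0.0602 from limma). Its adjusted p was 0.0366 with array weights, 0.0495 after quantile normalization and 0.0308 when each gene was the mean of its probe sets, so that the call depended on these settings. Without mutant replicate 2 the log2 fold change was -0.71 (adjusted p = 0.137). Dnajb9 was read by 1 probe set.

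Herpud1, whose product binds the ubiquitin ligase complex of the ER membrane, had log2 signals of 10.14, 10.33 and 10.46 in the controls and 9.89, 9.76 and 9.97 in the mutants. The groups did not overlap. Their log2 fold change was -0.44 (95% interval -0.72 to -0.16, unadjusted p of 0.00776, adjusted p = 0.211), and -0.38 (unadjusted p of 0.0262) without mutant replicate 2. The other probe set gave -0.41 (SE 0.10, adjusted p = 0.162), again without overlap.

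Hspa5, a standard marker of ER stress, had log2 signals of 11.29, 11.28 and 11.71 in the controls and 11.38, 11.26 and 11.09 in the mutants. Control replicate 3 stood above the rest, and mutant replicate 1 above the other controls. The log2 fold change was -0.18 (95% interval -0.54 to 0.17, adjusted p = 0.621), and its other probe sets gave -0.15 and -0.05. Without control replicate 3 it was -0.04, and without mutant replicate 3 it was -0.11.

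Sdf2l1, an ER-resident partner of chaperone complexes, was at 7.11, 7.76 and 7.55 in the controls and 7.46, 7.55 and 7.06 in the mutants. The groups overlapped, with a log2 fold change of -0.12 (95% interval -0.60 to 0.36, adjusted p = 0.823) that changed sign when control replicate 2 or mutant replicate 3 was left out.

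**Figure D2:**
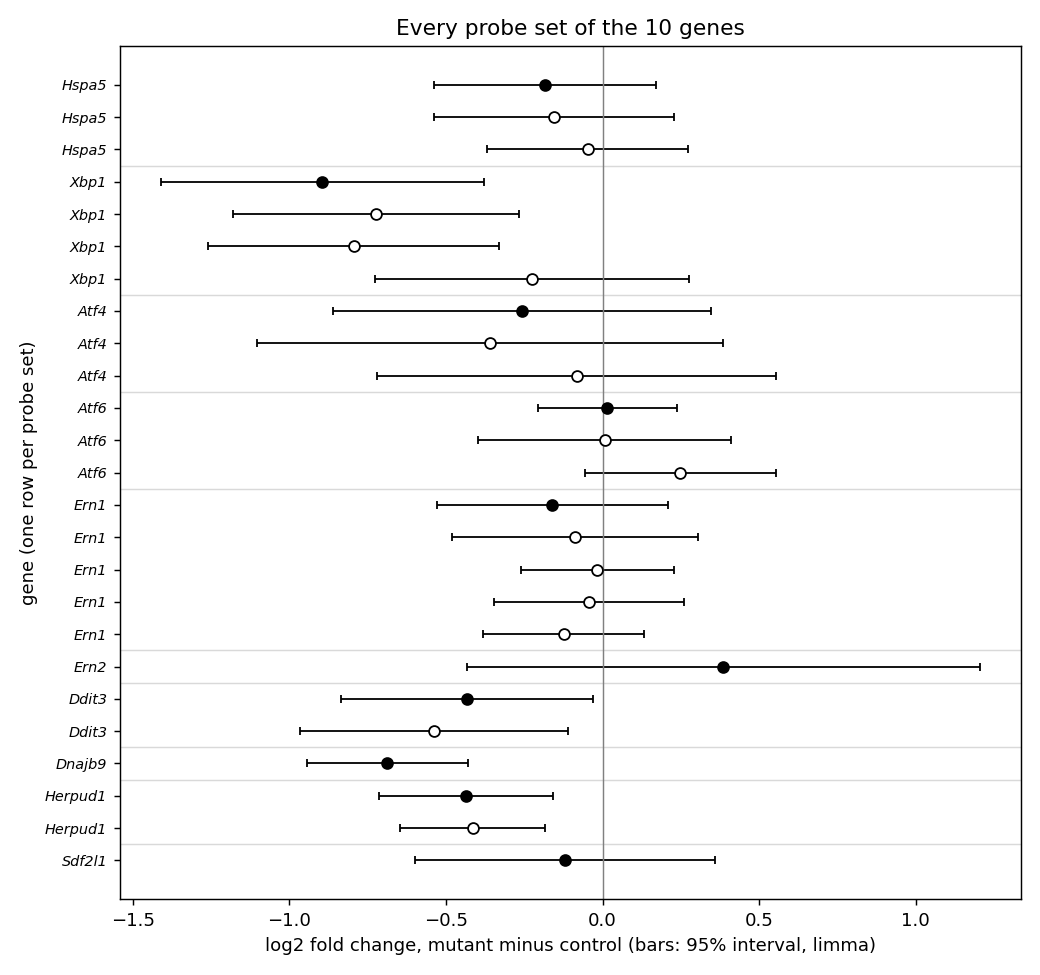
Log2 fold change, mutant minus control (horizontal axis), of each of the 25 probe sets of the 10 genes, with 95% intervals from limma; filled circles are the probe sets with the highest mean of each gene, open circles the others. The intervals of 3 of 4 Xbp1 probe sets and of all probe sets of Ddit3, Dnajb9 and Herpud1 lie below 0, before any adjustment for the number of probe sets.

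Counted together, none of the 10 genes was called at an adjusted p under 0.05, where 160 of all 18193 genes (0.879%) were. Without mutant replicate 2 none was called either, with 0.528% of all genes. With an unadjusted p by limma up to 0.05, 4 of the 10 were lower (Xbp1, Ddit3, Dnajb9 and Herpud1), against 6.18% of all genes. No member was higher with all arrays, where 1822 of 18193 genes were, and without control replicate 3 Ern2 was. In all, 16.2% of all genes had such a p in either direction. By SAM 4 were lower, against 5.77% of all genes. Without mutant replicate 2, 3 were lower, against 5.61%. All mutants lay below all controls for 3 of the 10 genes, against 8.86% of all genes, and above them for none, against 14.5%. Of the 10 log2 fold changes 8 were negative, those of Hspa5, Xbp1, Atf4, Ern1, Ddit3, Dnajb9, Herpud1 and Sdf2l1, against 39.6% of all genes. The median was -0.22, or -0.20 without mutant replicate 2, while that of all genes was 0.05. The 10 genes belong to the same response and cannot be taken as independent, and no test over the list was made.

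As a difference from the control mean, the 10 genes had a median of -0.08, -0.36 and -0.37 in mutant replicates 1, 2 and 3. It was -0.04, -0.10 and 0.12 in control replicates 1, 2 and 3. Mutant replicate 1 thus stood between controls 1 and 2 on this measure, and the other mutants stood below every control. In mutant replicate 1, 8 of the 10 genes lay below the control mean, in mutant replicate 2, 7, and in mutant replicate 3, 8. In the controls these numbers were 6, 6 and 1. The share of all genes below the control mean was not counted by array. Over all 18193 genes the median difference was 0.04, 0.08 and 0.02 in mutant replicates 1, 2 and 3, and -0.02, 0.05 and -0.02 in control replicates 1, 2 and 3.

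The wider machinery of the ER was described by 93 other genes in 5 lists, of which 90 were measured. None passed the adjusted threshold, against 0.879% of all genes. With an unadjusted p up to 0.05 8 were higher and 10 lower, by limma as by SAM, beside 1822 higher and 1124 lower of all 18193 genes by limma. The median log2 fold change was 0.01. The number with negative values was 44 of 90, against 39.6% of all genes. Without mutant replicate 2, 6 were higher and 6 lower with an unadjusted p by limma up to 0.05. Of all 18193 genes 1145 were higher and 1020 lower in that setting.

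Of all 18193 genes 1822 were higher and 1124 lower with an unadjusted p by limma up to 0.05. Of 20 chaperones and folding enzymes, 1 was higher and 1 lower. Both encode the oxidases that drive disulfide bond formation in the ER. Ero1a had log2 signals of 8.96, 9.15 and 8.99 in the controls and 9.61, 9.22 and 9.58 in the mutants, a log2 difference of 0.44 (SE 0.13, adjusted p = 0.259). Ero1b, the paralog of secretory cells, had 7.09, 7.21 and 7.28 against 7.05, 6.56 and 6.60, a log2 difference of -0.46 (SE 0.15, adjusted p = 0.294). Neither pair of groups overlapped. Without mutant replicate 2, Ero1a had 0.56 and Ero1b -0.37, the latter with an unadjusted p of 0.0617 by limma. With all arrays Uggt1, which checks glycoproteins for correct folding, was next by p (0.26, SE 0.11, adjusted p = 0.389). The lumenal chaperones that accompany Hspa5 in this response had values on both sides of 0, with -0.29 for Hsp90b1 (GRP94), -0.25 for Hyou1 and -0.23 for Pdia4, and 0.24 for Calr and 0.09 for Manf. These 5 were named after their values were seen. Agr2, the disulfide isomerase of goblet cells, had 0.06 (SE 0.44) and was named likewise.

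Of 14 measured genes of ER-associated degradation, which returns misfolded proteins to the cytosol, 11 had negative values, against 39.6% of all genes. The median log2 fold change of the list was -0.16. Edem1, which marks misfolded glycoproteins, had log2 signals of 9.64, 10.49 and 10.02 in the controls and 9.40, 9.38 and 9.09 in the mutants, without overlap. Its log2 fold change was -0.76 (SE 0.22, unadjusted p of 0.0105, adjusted p = 0.235), and it was called, with -0.81 and an adjusted p of 0.0306, when each gene was the mean of its probe sets. Derl3, of the retrotranslocation channel, had -0.59 (SE 0.20, adjusted p = 0.303), also without overlap. Without mutant replicate 2 Derl3 had -0.52 (unadjusted p of 0.0618 by limma). Vcp, the cytosolic ATPase that extracts the proteins, stood on the other side, with 11.24, 11.36 and 11.25 in the controls and 11.51, 11.58 and 11.69 in the mutants (0.31, SE 0.10, adjusted p = 0.264).

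Of 19 measured genes of translocation and export 2 were higher with an unadjusted p up to 0.05 and none was lower. The numbers over all 18193 genes were 1822 and 1124. Sec63, a partner of Hspa5 at the translocation channel, had a log2 difference of 0.38 (SE 0.11, adjusted p = 0.223). Sec11c, of the signal peptidase, also had 0.38 (SE 0.14, adjusted p = 0.332), and Ssr1, of the translocon-associated complex, had 0.26 (SE 0.13, adjusted p = 0.448). The median of the list was 0.00.

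In the PERK arm 3 of 20 genes were higher and 3 lower with an unadjusted p up to 0.05, beside 1822 and 1124 of all 18193 genes. Slc7a11, a cystine transporter and Atf4 target, was at 3.76, 4.12 and 3.54 in the controls and 4.93, 4.70 and 4.26 in the mutants. This probe set was dim, with means of 3.80 in the controls and 4.63 in the mutants. The log2 fold change was 0.82 (SE 0.21, adjusted p = 0.193), and with each gene as the mean of its probe sets it was 1.45 and passed the test (adjusted p = 0.0241). Atf5, a factor of the same family, had -0.55 (SE 0.17, adjusted p = 0.262), and Cebpg, a partner of Atf4, -0.56 (SE 0.18, adjusted p = 0.284), both without overlap. The other genes named here were chosen after their values were seen. Atf4 and CHOP targets had values on both sides of 0, with 0.77 (SE 0.28) for Psat1, 0.53 (SE 0.42) for Atf3, 0.50 (SE 0.21) for Ppp1r15a and 0.17 (SE 0.15) for Sesn2. On the negative side were Chac1 with -0.27 (SE 0.17), Trib3 with -0.23 (SE 0.11) and Asns with -0.04 (SE 0.22). Psat1 and Ppp1r15a were the other genes higher, and Cebpb (-0.35) was the other one lower, with an unadjusted p up to 0.05. PERK itself (Eif2ak3) had 0.15 (SE 0.20). Without mutant replicate 2, Psat1 had 0.72, Atf3 0.14 and Ppp1r15a 0.26. In that setting 1 gene of the list was higher and 2 were lower with an unadjusted p by limma up to 0.05.

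Among 17 sensors, proteases, secretory transcription factors and death effectors 1 was higher and 4 were lower with an unadjusted p up to 0.05. Over all 18193 genes these numbers were 1822 and 1124. Tnfrsf10b, the death receptor 5 that CHOP induces, had 0.36 (SE 0.09, adjusted p = 0.179). Its probe set was dim, with means of 4.46 in the controls and 4.82 in the mutants. Casp12, an ER-associated caspase, had -0.61 (SE 0.16, adjusted p = 0.205), with 7.09, 7.15 and 7.13 in the controls and 6.79, 6.16 and 6.57 in the mutants. Bcl2l11 (BIM), a BH3-only protein, had -0.51 (SE 0.17, adjusted p = 0.287). Groups did not overlap for these 3 genes. Casp12 was lowest in mutant replicate 2, and without that array it had -0.44.

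**Figure D3:**
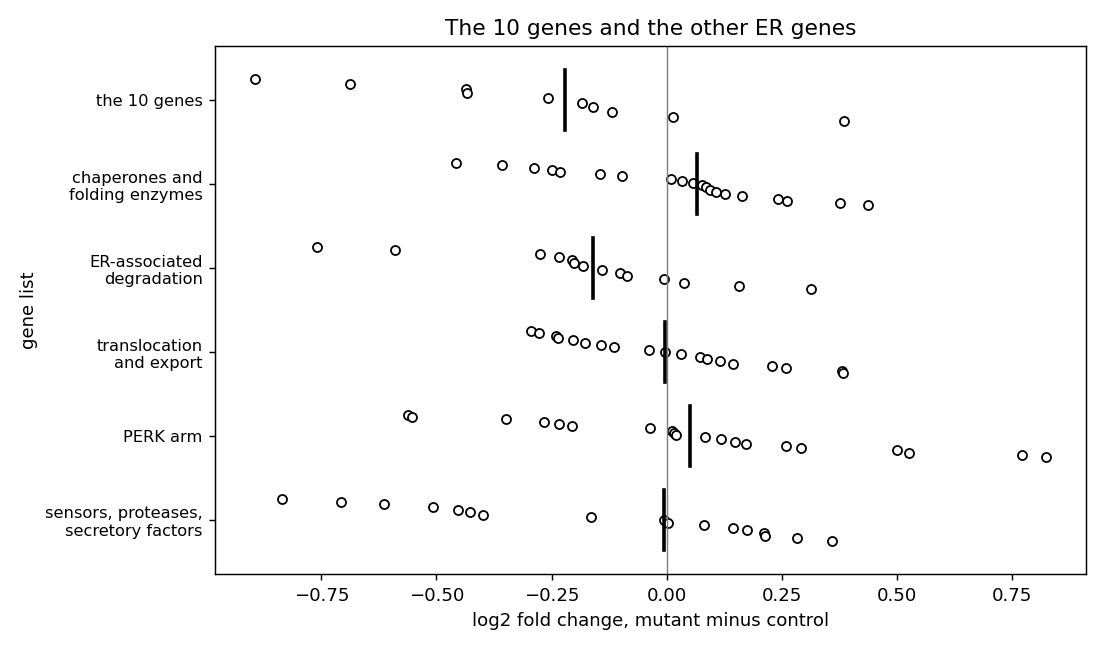
Log2 fold change, mutant minus control (horizontal axis), of the 10 genes and of the measured genes of 5 other lists of the endoplasmic reticulum; each circle is a gene and the vertical bar the median of its list. Medians run from -0.22 for the 10 genes and -0.16 for ER-associated degradation to 0.07 for chaperones and folding enzymes.

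Cell types with a large ER were examined beside Xbp1. Of 13 measured plasma cell markers 9 were lower and 1 higher with an unadjusted p up to 0.05. Over all 18193 genes 1124 were lower and 1822 higher. The plasma cell list holds Xbp1 itself and Derl3. Of the 11 others 9 had negative values, against 39.6% of all genes. Of these 11, 7 were lower with an unadjusted p up to 0.05, with or without mutant replicate 2. Their median difference from the control mean was -0.59, 0.52 and 0.06 in the controls, and it was -1.21, -1.14 and -0.87 in the mutants. None of them passed the test after adjustment. Jchain, which joins IgA dimers, had log2 signals of 12.60, 13.18 and 13.10 in the controls and 11.75, 8.91 and 11.96 in the mutants. Mzb1, an ER chaperone of immunoglobulin, had 7.96, 10.01 and 8.94 in the controls and 7.27, 6.12 and 7.46 in the mutants. All mutants lay below all controls for both genes, as for Xbp1. Sdc1 (CD138), a plasma cell marker that epithelial cells also express, had the smallest p of the list and went the other way, with 10.52, 10.47 and 10.65 in the controls and 11.02, 11.14 and 11.20 in the mutants (0.57, SE 0.10, adjusted p = 0.0815). Prdm1, the factor of plasma cell differentiation, had 0.46 (SE 0.41) with overlap. These 2 were named after their values were seen. Control replicate 1 was the lowest control for Xbp1, Jchain and Mzb1 alike. The highest was control replicate 3 for Xbp1, but control replicate 2 for Jchain and Mzb1. The part of plasma cell RNA in the values of Xbp1 and the other ER genes was not tested.

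For the lists that follow, 1822 of all 18193 genes were higher and 1124 lower with an unadjusted p up to 0.05, and 39.6% had negative values. Of 14 goblet cell markers, none was higher and 1, Clca1, was lower at that threshold (Clca1 was named for being the 1 such gene). Their median difference from the control mean was 0.11, 0.04 and 0.00 in the mutants. Muc2, the gel-forming mucin, had 14.16, 13.96 and 14.42 in the controls and 14.42, 13.92 and 13.72 in the mutants, with overlap. Zg16, a lectin of the mucus, was between 14.03 and 14.06 in all arrays. By mean signal Muc2 ranked at 99.99% and Zg16 at 99.98% of all probe sets, at the upper end of the measured range. Fcgbp, Tff3 and Spink4 of this list ranked at 99.83%, 99.86% and 99.86%. Differences may be harder to measure there, so nothing is read from the overlap of Muc2, the constancy of Zg16 or the small list median. Clca1, at 99.91%, still had a log2 difference of -0.94 (SE 0.22). Of 10 enteroendocrine markers 8 had negative values and 2 were lower with an unadjusted p up to 0.05, Gcg (-1.93, SE 0.40, adjusted p = 0.121) and Scg5 (-0.58, SE 0.12, adjusted p = 0.112), both without overlap, and Chga had a log2 difference of -0.09 (SE 0.50, adjusted p = 0.95). Smooth muscle and fibroblast markers stood farthest apart in mutant replicate 2, in which Xbp1, Ddit3 and Herpud1 had their lowest values and Dnajb9 did not. The part of this array's tissue composition in those values was not tested, and the values without it are given above. A smaller difference remained without this array. All 15 smooth muscle and 16 of 17 fibroblast and matrix markers were still negative. Of these, 9 and 6 were lower with an unadjusted p by limma up to 0.05, against 5.61% of all genes. Leaving out this array thus does not make the groups alike in these markers. Of 10 immediate early genes, which respond to handling of tissue, all had positive values and 3 were higher with an unadjusted p up to 0.05. Their median log2 fold change was 0.45, or 0.16 without mutant replicate 2, and their median difference from the control mean was -0.01, 0.92 and 0.41 in mutant replicates 1, 2 and 3. The part of tissue handling in the values of the 10 genes was not tested. Of 11 genes of the cytosolic heat shock response 2 were higher and 1 was lower. Of 14 measured immune markers 2 were higher and 1 lower at that threshold, with a median log2 fold change of -0.12. Cd68, of macrophages, had 1.28 (SE 0.31, adjusted p = 0.174), and Ptprc (CD45) had -1.25 (SE 0.32, adjusted p = 0.186), both without overlap and named after their values were seen. Other myeloid markers of the list did not share the direction of Cd68. Csf1r had -1.16 (SE 0.74), or -0.21 without mutant replicate 2. Adgre1 had -0.43 (SE 0.24) and Itgax -0.42 (SE 0.23), with overlap in all of these, while Itgam had 0.15 (SE 0.08), S100a8 0.56, S100a9 0.31 and Mpo 0.13. Macrophage content is thus not read from Cd68.

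**Figure D4:**
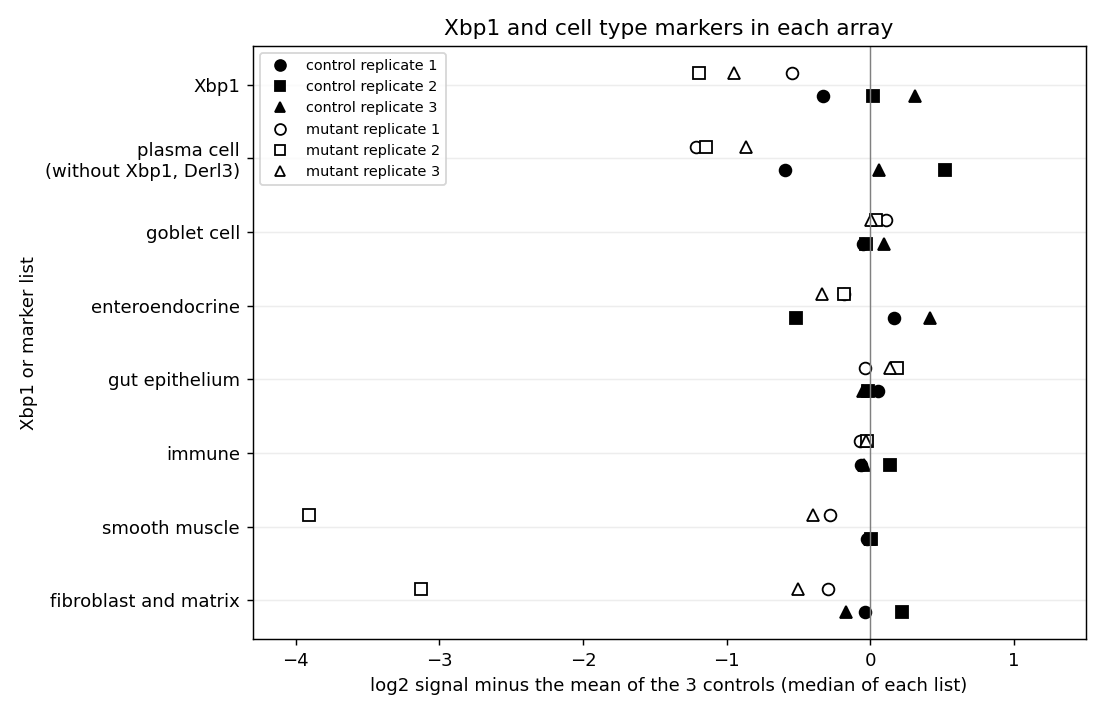
Xbp1 and the medians of 7 lists of cell type markers by array, as the difference of log2 signal from the control mean (horizontal axis), with controls filled, mutants open, and circle, square and triangle for replicates 1, 2 and 3. The 3 mutants lie below the controls for Xbp1, for the plasma cell list without Xbp1 and Derl3, and for the smooth muscle and the fibroblast and matrix lists. They lie close to 0 for goblet cell markers, and mutant replicate 2 stands apart at -3.91 for smooth muscle and -3.13 for fibroblast and matrix.

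For Dnajb9, the member with the smallest p, the genes with the most similar course over the 6 arrays were sought among 7904 genes with a mean log2 signal of 7 or more. The root mean square difference of log2 signals, each relative to its own control mean, was 0.04 for Ctss, 0.09 for 2900026A02Rik, Pgrmc1 and Pttg1ip, and 0.10 for Hectd3. Log2 fold changes of these genes ran from -0.78 to -0.63, and Pgrmc1 fell (adjusted p = 0.0390 from limma), a call lost without mutant replicate 2 (log2 fold change -0.71, adjusted p = 0.0982). All of them share the same 6 arrays, so likeness here includes whatever separates these animals.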

How the data were processed

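RNA of proximal colon was read on Affymetrix mouse whole-genome arrays, 1 per animal, for 3 control and 3 mutant mice. The authors normalized the arrays by RMA, per the labels, and compared them with SAM in FlexArray, and the deposited values are log2 signals, used here without further scaling. Probe level data were not used. After 64 control probe sets were left out, 45037 were tested, mutant minus control, with lmFit and eBayes of limma 3.58.1 in R 4.3.3, and p-values were adjusted over all of them by the Benjamini-Hochberg method. Per gene, the probe set with the highest mean over the 6 arrays was used among the 34945 with 1 symbol in the platform annotation, while 932 had several symbols and 9160 none. The groups are those of the sample titles. In a test on simulated data of these 45037 probe sets, 62 of 100 probe sets with a log2 difference of 1 and 93 of 100 with a difference of 2 were recovered. Precision is limited by the number of arrays: with 3 against 3, an exact permutation test reaches no p below 0.1. P-values of limma weigh a group difference against the spread between these mice, which is estimated with help from all 45037 probe sets.

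The 10 genes, the lists and the tests were chosen with earlier results of these data known. Named were the 10 genes, of each of the 5 other ER lists the called genes and the 3 with the smallest p, defining cell markers, and the 5 genes most like the member with the smallest p. Symbols Aars, Nars and Wars of the platform were used for Aars1, Nars1 and Wars1. Alternatives were each array left out, SAM over all 20 arrangements of the arrays, array weights, a trended robust prior, quantile normalization, median centring, a filter at a mean of 6, the replicate number as a block, and the mean over probe sets. Counts at an unadjusted p under each alternative, and the plasma cell list without 2 ER genes, were added after seeing the data. Promoter windows were those of RefSeq on build GRCm38.p6, matched by symbol for 8 of 10 genes.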

Additional observations from a re-analysis of the deposited data

How the results depend on the processing

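No gene of the 10 was called with any single array left out (0 to 0), and 1, Dnajb9, was called with array weights (log2 fold change -0.63), after quantile normalization (-0.71) and with the mean over probe sets (-0.69), where Edem1 and Slc7a11 made 2 calls among the other ER genes. After quantile normalization 263 of 45037 probe sets were called in all. With the mean over probe sets it was 254 of 18193 genes. The sign of Atf6 turned without control replicate 2 (-0.014), mutant replicate 2 (-0.0026) or mutant replicate 3 (-0.019), and that of Sdf2l1 without control replicate 2 (0.022) or mutant replicate 3 (0.029). The other 8 genes kept their direction in all 14 alternatives. The number lower with an unadjusted p up to 0.05, 4, was 3 to 5 with single arrays left out and 4 in the other alternatives. Without control replicate 3, 1 member, Ern2, was higher (0.77). The share of all genes at that p was counted only with all arrays by limma and SAM, and without mutant replicate 2. In the other settings these numbers have no such share beside them. SAM adjusted over all probe sets gave no p below 0.1 by its construction, so that Hnf4a (-1.94) was not called by it either. The replicate numbers showed no clear pairing of the animals: deviations from the group means correlated with r = -0.02, 0.25 and -0.15 for numbers 1, 2 and 3, and 1 of 3 mutants correlated best with its own number. With 3 arrays in each group this check cannot exclude a pairing. With the replicate block, 0 members and 62 probe sets were called, against 0 and 239 without it. Array weights called 599 probe sets, and leaving out single arrays 39 to 336. Dnajb9 had adjusted p-values of 0.0308 to 0.232 over the alternatives. Over the arrays left out, Atf6 ran from -0.019 to 0.066 and Sdf2l1 from -0.30 to 0.029.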
